A study of Homo sapiens with 12 samples.

Results

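HSF1 peaks at coding promoters that lack a CCAAT box close to the summit were described in Huh7 cells, an established line from a human liver carcinoma, which had received no treatment. A peak belonged to the set when its summit lay within 1 kb of the outermost start of a protein-coding gene, lay at no divergent pair of coding starts, and had no CCAAT on either strand within 100 bp. A divergent pair is a pair of coding starts on opposite strands, at most 1 kb apart and transcribed away from each other. The rule was met by 2049 of the 7129 HSF1 peaks on chromosomes 1 to 22 and X, or 28.7% (95% Wilson interval 27.7% to 29.8%). They made up 63.8% (62.1% to 65.4%) of the 3212 peaks at single coding promoters, the other 1163 holding CCAAT. Single means here only that no divergent pair lay there, as 211 members (10.3%) had 2 or more outermost coding starts within 1 kb. A further 410 peaks lay at divergent pairs, and 3507 lay farther than 1 kb from the outermost start of every coding gene. The nearest coding starts of the 2049 peaks belonged to 2015 genes, which is 10.1% of the 19970 coding genes annotated on these chromosomes, and every count of member genes below is read against that share.

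HSF1 is the factor best known for switching on chaperone genes under heat and other proteotoxic stress. It binds as a trimer to heat shock elements, arrays of inverted GAA units, and in tumour cells it also occupies many promoters outside the chaperone genes. Mammalian coding promoters are often rich in CpG and hold short shared motifs: the GC box bound by the SP/KLF factors, the CCGGAAG site of ETS factors, the NRF1 palindrome, the YY1 site, the cyclic AMP response element (CRE) of CREB and ATF factors, and the CCAAT box bound by NF-Y. The peaks described here are those in which the last of these is missing near the summit.

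The series holds 12 samples, and the values came from 2 CUT&Tag libraries of cells that received no siRNA, 1 made with an HSF1 antibody and 1 for H3K27ac. In CUT&Tag an antibody tethers a transposase that cuts and tags nearby DNA, and H3K27ac is an acetylation mark of active promoters and enhancers. Neither library was replicated, so the intervals below cover counting error only and no difference has a replicate check. Both peak lists were called without a control library, and open chromatin can be tagged in this assay without the target protein, so the part of tagging of that kind in these peaks was not tested. The HSF1 library kept 2712212 of 3604911 tags after duplicate removal (75.2%), and the H3K27ac library kept 896393 of 15737890 (5.70%).

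The sequences below are the hg38 reference around motif matches in members with high peaks, 30 bases each, written 5′ to 3′ on the strand of the gene with the match in capitals. They show the GC box (GGGCGG), the ETS core (CCGGAAG), the NRF1 core (CGCATGCG), the YY1 core (AAGATGGCG) and the CRE (TGACGTCA), each searched on both strands, so a match can read as its reverse complement.
CCM2 GC box, chr7:45000035-45000064: ttctccctgaagGGGCGGggtctgatcgct
RIMOC1 GC box, chr5:41904130-41904159: tcaacgtcacacCCGCCCctagtctccttg
RIMOC1 ETS, chr5:41904230-41904259: gggccagccctCTTCCGGagctgatgtctc
RSPH3 ETS, chr6:158999863-158999892: cggagtcaagagCCGGAAGtcccttgtgcc
TFB1M NRF1, chr6:155314597-155314626: gcaggacttagCGCATGCGctctcagcacg
TRIM37 NRF1, chr17:59106874-59106903: agcgtcctgcgCGCATGCGcttcgcagctt
RCBTB2 NRF1, chr13:48532826-48532855: aggcgtcgtcgCGCATGCGtaaaactgctg
HACD2 YY1, chr3:123585153-123585182: tgccctcagccAAGATGGCGgctgccgtgg
ZDHHC17 YY1, chr12:76764254-76764283: atttaacaccAAGATGGCGgacggcccgga
CXXC1 YY1, chr18:50287801-50287830: atacgataagcAAGATGGCGgcgcctgagg
AMN1 CRE, chr12:31729099-31729128: aaaaatccgtgTGACGTCAcaaaaacctac
CYCS CRE, chr7:25125527-25125556: aggcccgcgagTGACGTCAcctctcccgac
TCAIM CRE, chr3:44338372-44338401: taccagggtgcTGACGTCAgctagaggcag
The YY1 matches of these 3 genes read in the sense direction, while the CRE and NRF1 cores are palindromes and have no direction.

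A second set of sequences holds the palindrome CTCGCGAG, which is recognised by BANP, an activator of CpG-island promoters. It was shown because a word of this family ranked first among the words common at the member starts (below).
CUL3 BANP, chr2:224585515-224585544: ctcgccctcttCTCGCGAGatctgagcgtc
ATF7 BANP, chr12:53626390-53626419: acccatgacttCTCGCGAGagttgagcgcg
CACYBP BANP, chr1:174999818-174999847: ttgccggttcgCTCGCGAGacttgagcgtt
CUL3 codes for the scaffold of a ubiquitin ligase, ATF7 for a CRE-binding factor and CACYBP for a calcyclin-binding protein. The match lay 2 bp from the summit in CUL3, 20 bp in ATF7 and 46 bp in CACYBP.

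Peak height was taken as the fold enrichment, the pileup of extended tags at the summit plus 1 over the local background plus 1. The median over the 2049 members was 6.94 (order-statistic interval 6.85 to 7.05), the quartiles were 6.02 and 8.33, and the range ran from 3.44 to 17.3. At the 1163 single CCAAT promoters the median was 7.71 (7.52 to 7.81), and at the 410 divergent promoters it was 7.43 (7.23 to 7.65). The ratio of the medians, members over CCAAT promoters, was 0.900, and the distributions overlapped over most of their range. In tags the median pileup was 13 for the members, 15 for CCAAT promoters and 14 for divergent ones, and the peaks were 371, 399 and 435 bp long at the median. The members were the most GC-rich of the sets around the summit, with a median of 68.2% against 64.7% at CCAAT promoters. CCAAT itself holds A and T bases, and its part in that difference was not tested. Within windows of 60% to 70% GC, the median fold enrichment was 7.06 for 960 members and 7.78 for 611 CCAAT promoters, so the order was the same there. The local background was close, at 0.960 and 1.06 tags.

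The highest member by fold enrichment was the peak assigned to RGPD2 (chr2:87824827-87825379), at 17.3 with a pileup of 58 tags, 575 bp downstream of the start in an intron. RGPD2 belongs to a family of near-identical RANBP2-like genes, and whether its reads were shared with other copies was not tested. Its window was poor in GC for this set (44.3%), and 57.1% of the 13-base words in it also occur in the mitochondrial genome, which was the case for no other of the 10 highest. Next came RIMOC1 (chr5:41903915-41904412), which codes for a subunit of a complex that activates RAB7, with a fold enrichment of 15.6. BRD3OS followed at 15.2, CCM2, a scaffold of endothelial junctions, at 14.2, and FOXN2, a forkhead factor, at 14.1. RSU1, TFB1M, SPATC1L, SUCO and IQUB completed the 10, from 13.9 down to 13.6. TFB1M codes for the methyltransferase of the mitochondrial small ribosomal RNA. The lowest members were PITPNM1, TMEM134 and SLC26A1, with 3.44, 3.57 and 3.77.

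Some of the highest windows were simple in sequence. The BRD3OS window, chr9:134025131-134025331, is given whole because 89.1% of its bases are pyrimidines on one strand, against a median of 54.7% over members.
BRD3OS window: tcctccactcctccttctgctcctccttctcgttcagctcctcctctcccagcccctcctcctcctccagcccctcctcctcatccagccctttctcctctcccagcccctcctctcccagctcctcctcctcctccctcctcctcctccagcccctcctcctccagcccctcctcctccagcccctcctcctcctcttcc
The BRD3OS window held 83 distinct 8-base words and the SPATC1L window 51, against a median of 192 over members. Over all members, 29 windows (1.42%) held fewer than 150 distinct words, and their median fold enrichment was 8.11. Of these 29, 7 overlapped an H3K27ac peak (24.1%, 12.2% to 42.1%), while of the other 2020 members 9.06% did (7.88% to 10.4%). The threshold of 150 was set after the values were seen.

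By pileup, TMEM87B (chr2:112054219-112055258) stood first with 81 tags, followed by FARP2, a guanine exchange factor, with 66 and IMPA2, an inositol monophosphatase, with 64. Then came RGPD2 with 58, ELL, an elongation factor of RNA polymerase II, with 56, and AFG3L2 and SETD5 with 54 each. AFG3L2 is a subunit of a protease of the mitochondrial inner membrane. EEPD1, HSPE1 and RALY had 52 each. Only RGPD2 stood among the 10 highest by both measures, since the fold enrichment divides by a local background that differed between loci.

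The local background was highest where members lay in a part of chromosome 11. Among the 89 bins of 2 Mb with at least 5 members, the one between 66 and 68 Mb of that chromosome had a median background of 4.41 tags over its 14 members, against a median of 1.2 over the bins and 3.37 in the second highest. The pileup of these 14 members was also high, with a median of 28.5 tags and a range of 16 to 42. Their fold enrichment was low, with a median of 5.14 and a range of 3.44 to 8.70. The 34 other HSF1 peaks in that bin had a median background of 3.97 tags. PITPNM1, the lowest member by fold enrichment, lies there with a pileup of 28 tags and a background of 7.44, and so do RAB1B, RBM4B, NUDT8 and RIN1. What raises the background in that bin was not tested.

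Summits clustered at the starts with little preference for a side. Of the 2049, 1097 (53.5%, 51.4% to 55.7%) lay upstream of the outermost start, and the median summit lay 13 bp upstream. At the single CCAAT promoters 69.3% lay upstream and the median was 63 bp upstream. The sets are split by CCAAT near the summit, so where that box lies relative to starts enters this contrast, and its part was not tested. Within 100 bp of the start lay 37.0% of the members, within 250 bp 67.8% and within 500 bp 88.4%. Since the outermost start is not always the used one, the distance to any annotated start of a coding transcript was also taken, and 82.7% lay within 250 bp of one. By the annotation, 25.8% of the summits fell in an untranslated region, 14.9% in an intron, 2.88% in coding sequence, 2.88% in another exon, and the rest upstream of the gene.

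The outermost-start rule left some head-to-head promoters in the set. In 191 members (9.32%) another coding transcript started within 1 kb upstream on the opposite strand when all annotated starts were read, as HSPD1 does beside HSPE1, OARD1 beside NFYA and WDR20 beside HSP90AA1. Their median fold enrichment was 7.06. A noncoding gene started head to head within 1 kb in 336 members (16.4%). Genes with several members were few: 34 genes held 2 or more, and 18 genes had both a member and a CCAAT peak.

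Motif content was compared over windows of 100 bp on either side of the summit. The GC box was found in 1350 members, or 65.9% (63.8% to 67.9%). It stood in 69.9% of the CCAAT promoter windows, a difference of -4.02 percentage points (Newcombe interval -7.32 to -0.648), and when these were weighted to the GC content of the members their share was 77.2%. Windows 5 kb to either side of the members held it in 4.29%, or 38.3% when weighted to the GC content of the members. The median GC of these windows was 43.3%, so their weighted shares, here and below, rest mostly on the GC-rich ones among them. No interval was computed for the weighted shares. The longer core GGGGCGGGG stood in 23.7% of the members. It turned the direction, with 2.43 points more in the members (-0.597 to 5.37), so no difference in the GC box is read from these sets. At all coding starts, in windows of the same length from 150 bp before to 50 bp after the start, the share with GGGCGG was 47.7%.

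The ETS core was found in 318 members, or 15.5% (14.0% to 17.2%). At CCAAT promoters it stood in 11.5%, a difference of 3.998 points (1.53 to 6.36), and in 10.6% after weighting to GC. The windows 5 kb away held it in 0.781%, or 3.65% when weighted to the GC content of the members. All coding starts held it in 10.3%. The NRF1 core was found in 72 members, or 3.51% (2.80% to 4.40%), against 2.06% at CCAAT promoters, a difference of 1.45 points (0.231 to 2.56). In the windows 5 kb away it stood in 0.0732%, or 0.207% when weighted to GC, and at all coding starts in 2.21%. With these cores ETS and NRF1 were more frequent in members than in CCAAT promoters by more than the counting error. With the shorter ETS core CGGAAG the shares were 26.8% and 24.8%, and the difference of 1.99 points (-1.18 to 5.09) no longer exceeded it. With the NRF1 core GCATGCGC the difference was 2.26 points (0.812 to 3.61).

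The YY1 core was found in 49 members, or 2.39% (1.81% to 3.15%), and in 2.06% of CCAAT promoters, a difference of 0.328 points (-0.817 to 1.34). The CRE was found in 40 members, or 1.95% (1.44% to 2.65%), and in 2.24% of CCAAT promoters, a difference of -0.283 points (-1.43 to 0.707). Neither difference exceeded the counting error. The shares depended on the core: GATGGCG stood in 5.42% of members and 3.96% of CCAAT promoters, and TGACGT in 10.0% and 10.1%. For AAGATGGCG and TGACGTCA the shares 5 kb away were 0.171% and 0.146%, or 0.0490% and 0.565% when weighted to the GC content of the members. Those of all coding starts were 1.69% and 2.03%.

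Motifs outside these 5 gave a mixed picture. The E-box CACGTG stood in 7.76% of members, the E2F site GGCGGGAA in 3.51%, the BANP palindrome in 2.05%, the TATA box TATAAA in 1.46% and the ZNF143 site CCCANAATG in 1.12%. GGCGGGAA can share the letters GGCGG with the GC box. The shares at CCAAT promoters were 6.28%, 4.47%, 1.46%, 2.24% and 0.602%, each within the counting error of the difference. At all coding starts they were 6.45%, 2.71%, 0.996%, 7.57% and 0.976%. The BANP palindrome was in 0 of the 4098 windows 5 kb away, which allows a share of up to 0.0732%. The TATA box stood in 16.7% of those AT-rich windows, or 0.482% when weighted to the GC content of the members.

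Heat shock elements were found in few members. The element of 3 alternating units, each unit 2 bases from the next and with 1 mismatch allowed in the 9 fixed bases, stood in 39 members, or 1.90% (1.40% to 2.59%), and in 2.24% of CCAAT promoters. The windows 5 kb away held it in 4.76%, or 0.487% when weighted to the GC content of the members. The shorter GAANNTTC, which can lie inside the longer element, stood in 34 members (1.66%), in 2.49% of CCAAT promoters and in 3.59% of all coding starts. Of all coding starts, 3.08% held the 3-unit element. At the member starts it stood in 2.33%, against 3.37% of the starts without a peak, or 2.12% when these were weighted to GC, so the direction turned at equal GC content. The highest members with the 3-unit element were PRKCSH, the regulatory subunit of glucosidase II of the endoplasmic reticulum, with a fold enrichment of 11.8, HSPA8, the constitutive cytosolic HSP70, with 11.7, and DFFB, the nuclease of apoptotic DNA cleavage, with 10.7.
PRKCSH GAANNTTC, chr19:11435389-11435418: gcatttttcagGAACTTTCtttccggcttg
HSPA8 GAANNTTC, chr11:123062348-123062377: ggggcgagcttGAAAGTTCcagaacgctgc
In HSPA8 the match is followed by a further GAA unit, so that 3 units alternate, and it lies 16 bp from the summit. The median fold enrichment of members with the 3-unit element was 6.67 (6.12 to 7.69), against 6.95 without it.

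The starts of the member genes were then compared with 14774 single coding starts that had no HSF1 summit within 1 kb. The GC box stood in 63.6% of the 2015 member starts and in 41.9% of the others, and weighting the others to the members' GC content brought them to 58.8%. ETS stood in 17.6% and 7.47% (10.2% weighted), NRF1 in 3.87% and 1.46% (2.104%), YY1 in 3.33% and 1.13% (1.53%), and CRE in 3.08% and 1.64% (2.18%). The BANP palindrome stood in 2.33% and 0.623% (0.797%). The TATA box went the other way, with 2.98% and 9.19% (4.87%). Thus most of the difference in the GC box was gone at equal GC content, and the weighted share stayed below that of the member starts for each of the 5 motifs.

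All 8-base words that stood in at least 2% of the member starts were also ranked, without naming a motif. Since a word had to be common at member starts to enter, ratios above 1 were favoured by the choice of words, and the ratios are a description. Over the 1578 words, the median ratio of the share at member starts to that at starts without a peak was 1.38. The highest was TCGCGAGA, in 62 member starts (3.08%) and 0.697% of the others, a ratio of 4.41. CGCGAGAA (3.95), ACTGCGCA (3.89), CGTGCGCA (3.77), CTCGCGAG (3.75), CTGCGCAG (3.46), CAGGCGCA (3.43), CCTGCGCA (3.35), CGCAGGCG (3.28) and CGCGAGAC (3.20) followed, with the ratio in brackets. Of these 10, 4 contain CGCGAG, the core of the BANP palindrome, and 4 contain TGCGCA, which is one side of the NRF1 site, while none holds the GC box, ETS or CRE core. The words overlap each other, so they are not separate observations. At genes with a CCAAT peak, each of the 10 words had a share between that of the members and that of starts without a peak. For TCGCGAGA it was 1.56%. For ACTGCGCA it was 2.77%, against 3.08% in members and 0.792% at starts without a peak. Shares above those of starts without a peak are thus not particular to this set. TGCGCA itself stood in 14.7% of member starts, 5.94% of the starts without a peak (8.21% weighted to GC) and 7.86% of all coding starts. CGCGAG stood in 23.5%, 12.1% (16.9% weighted) and 14.8%.

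None of the 5 motifs was present in 523 members (25.5%), 1 in 1242 (60.6%), 2 in 266 (12.98%), 3 in 17 and 4 in 1. GC box and ETS occurred together in 189 members (9.22%), where the product of their shares is 10.2%. The median fold enrichment was 6.70 without any, 7.04 with 1 and 7.14 with 2. The 17 members with 3 had 6.0 (5.77 to 7.65) and the 1 with 4 had 5.33, too few to tell. By motif, members with the BANP palindrome had the highest median, 8.00 (7.14 to 8.79, n = 42), against 6.93 without it. NRF1 followed with 7.55 (6.88 to 8.00), the GC box had 7.04 (6.90 to 7.18) against 6.80 without it, ETS had 7.04 and CRE 6.87. YY1 had 6.62 (6.0 to 6.99) against 6.96 without it.

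Split into 4 groups of equal size by fold enrichment, the share with a GC box was 59.8%, 66.6%, 66.4% and 70.7% from the lowest to the highest. The BANP palindrome went from 0.585% (0.199% to 1.71%) in the lowest group to 3.71% (2.39% to 5.72%) in the highest. ETS stayed between 14.3% and 16.8%, and YY1 was at 3.51% in the lowest and 2.15% in the highest, with overlapping intervals. The median GC content was between 68.2% and 68.7% in all 4 groups.

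Motifs also differed in where they lay. Within 50 bp of the summit lay 64.8% (59.8% to 69.5%) of the 372 ETS matches and 70.0% (54.6% to 81.9%) of the 40 CRE matches, where an even spread over the window gives 51.8% and 52.1%. For NRF1 it was 63.3% (52.3% to 73.1%), for the GC box 55.1% (53.3% to 57.0%), and for YY1 45.1% (32.3% to 58.6%). YY1 was instead placed by the start: of its 51 matches, 27 (52.9%) lay between 0 and 50 bp downstream of it, with a median of 24 bp, and 38 (74.5%, 61.1% to 84.5%) read in the sense direction. In the starts without a peak, 71.6% of the YY1 matches were sense and the median lay 19 bp downstream. ETS matches had their median 2 bp upstream of the start and GC boxes theirs at -30.5 bp.

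**Figure D1:**
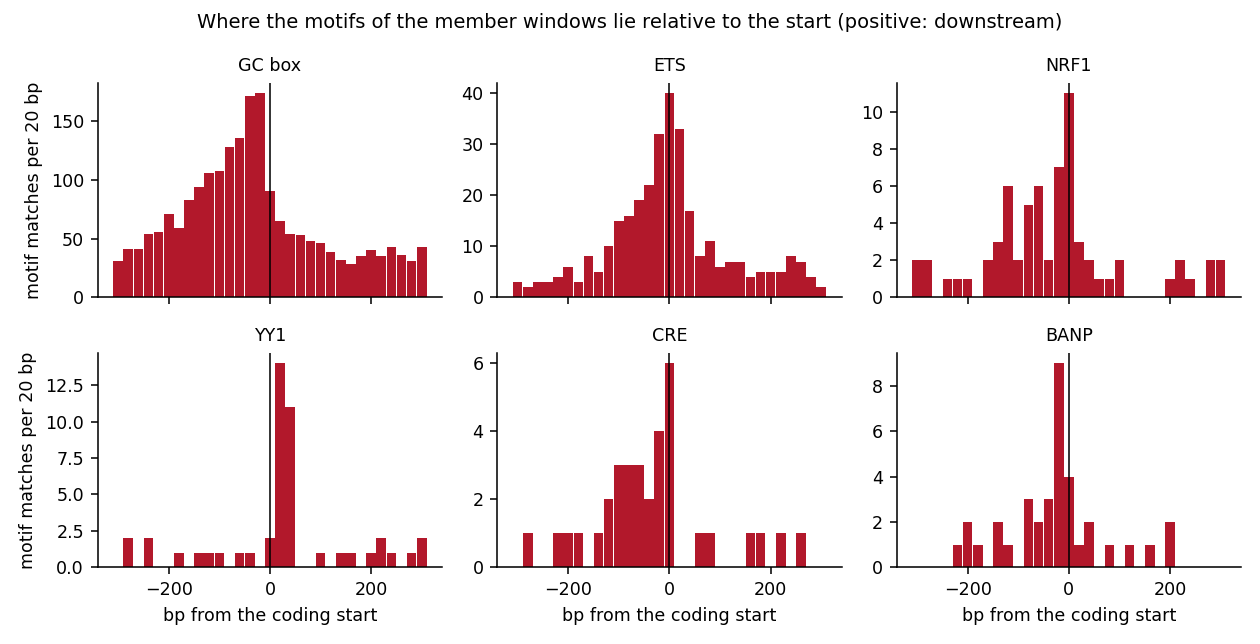
Number of motif matches per 20 bp in the member windows by distance from the coding start in bp, positive values downstream, for 6 motifs. GC boxes lie mostly upstream, ETS, NRF1, CRE and BANP matches cluster at the start, and 27 of 51 YY1 matches lie 0 to 50 bp downstream. The windows are centred on summits, which themselves cluster at the start.

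An H3K27ac CUT&Tag peak overlapped 190 members, or 9.27% (8.09% to 10.6%), when any overlap counted. The share was 5.22% when 50% of the HSF1 peak had to be covered and 6.30% with the summit inside. Any overlap is used below. Over all 7129 HSF1 peaks the share was 8.56%, so the members were near that background. Single CCAAT promoters had 75 such peaks, or 6.45% (5.18% to 8.01%), which is 2.82 points less than the members (Newcombe interval 0.867 to 4.67). Divergent promoters had 10.98%, and the difference of -1.70 points (-5.30 to 1.28) did not exceed the counting error. The H3K27ac list is short, with 1291 peaks on these chromosomes, so a member without one is only a member without a peak at this depth.

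The share was higher in taller HSF1 peaks. In the same 4 groups of fold enrichment, from the lowest to the highest, it was 5.26%, 8.01%, 8.203% and 15.6%. Members and CCAAT promoters were also compared within 3 ranges of pileup, to allow for their different heights. With 5 to 11 tags the shares were 5.54% and 3.99%, and with 12 to 17 tags 8.39% and 5.86%. With 18 tags or more they were 16.1% (13.2% to 19.5%) and 8.85% (6.49% to 11.96%), a difference of 7.24 points (2.99 to 11.4). Only in this last range did the interval of the difference exclude 0. Local tag density can raise both libraries at a locus, and its part in this relation was not tested.

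The highest H3K27ac peaks at members, by fold enrichment, were at SPATC1L (14.0), RGPD2 (11.04), UPF2 (10.6), FARP2 (10.4), BRD3OS (10.3) and IPO13 (10.3). Of these, RGPD2, SPATC1L and BRD3OS are the mitochondrial-like and the 2 low-complexity windows described above. UPF2 is a factor of nonsense-mediated decay and IPO13 a nuclear transport receptor. RAB28, CD164, ERRFI1 and ERAP1 followed with 10.2, 9.85, 9.63 and 9.49. RAB28 and ERAP1 also show the spread in HSF1 height, with pileups of 24 and 10 tags.

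**Figure D2:**
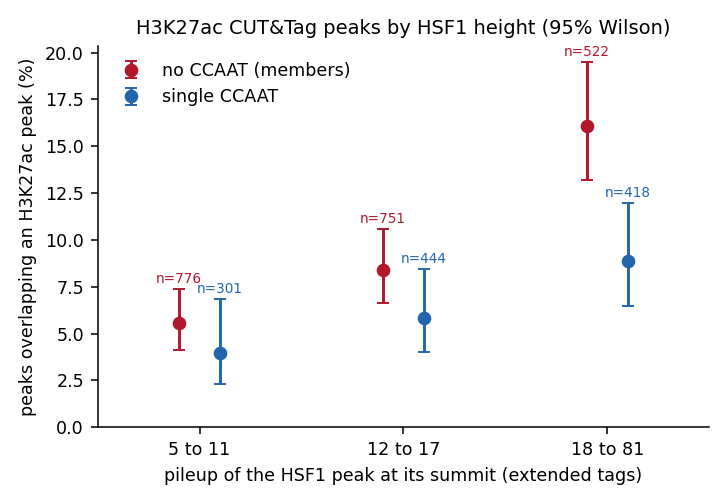
Share of peaks (%) that overlap an H3K27ac CUT&Tag peak, by HSF1 pileup in extended tags, for members and single CCAAT promoters, with 95% Wilson intervals and the number of peaks. The share is higher in taller HSF1 peaks, and members exceed CCAAT promoters by more than the counting error at 18 tags or more.

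Gene classes were read as the share of a class's coding genes that had a member peak, against 10.1% of all coding genes. Of 44 classes, 13 had a whole interval above that share and 5 a whole interval below it. Without the head-to-head members, an alternative chosen after seeing the data, 10 were above their share of 9.15%, the autophagy, centrosomal and anaphase-promoting classes no longer being so, and chaperones had 7 of 31 (22.6%, 11.4% to 39.8%). The VPS endosomal sorting proteins (27.1%) and nuclear pore proteins (25%) then stood above chaperones. With all members kept, heat shock chaperones led with 10 of 31 genes (32.3%, 18.6% to 49.9%). The anaphase-promoting complex, the ubiquitin ligase of mitotic exit, had 4 of 14 (28.6%), and the VPS endosomal sorting proteins had 13 of 48 (27.1%, 16.6% to 41.0%). Translation initiation factors had 14 of 55 (25.5%), nuclear pore proteins 8 of 32 (25%), cytosolic ribosomal proteins 19 of 86 (22.1%, 14.6% to 31.9%) and snRNP and splicing factors 21 of 97 (21.6%).

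The other classes above were histone lysine methyltransferases and demethylases with 10 of 45, autophagy genes with 7 of 32, RAB GTPases with 16 of 74, centrosomal proteins with 8 of 41, ubiquitin-specific proteases with 15 of 77 and DNA repair genes with 15 of 79. Genes with any HSF1 peak were also frequent in all these classes, chaperones included (51.6%), against 21.5% of all coding genes. Such a gene needed only a summit within 1 kb of its outermost start, while a member gene had to be the nearest to a summit. Genes beside a peak assigned to a neighbour thus enter the first count only. The shares with any peak ran from 28.6% (19.7% to 39.5%) in ubiquitin-specific proteases to 64.3% (38.8% to 83.7%) in the anaphase-promoting complex. High shares in these classes are thus not particular to this set. At the other end, where the limit given is the share that 3 genes would make, olfactory receptors had 0 of 415, which allows up to 0.723%, keratins and keratin-associated genes 0 of 149 (up to 2.01%), HOX genes 0 of 39 (up to 7.69%) and replication-dependent histones 0 of 69 (up to 4.35%). Solute carriers had 21 of 373 (5.63%, 3.71% to 8.45%). Genes for liver plasma proteins were at the background with 7 of 66 (10.6%), among them the fibrinogen gamma chain gene FGG with a fold enrichment of 8.72.

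Within the classes above, the highest members ranged widely in height. Among splicing factors HNRNPD had a fold enrichment of 12.6 and SF3A2, a subunit of the U2 snRNP, 9.35. SEH1L of the nuclear pore had 11.9, VPS26C, a subunit of the endosomal retriever complex, 10.9, and TSG101 of ESCRT-I 10.5. RPL26 had 9.89 among ribosomal proteins, and EIF4B 9.65 among initiation factors. PARP2, a sensor of DNA breaks, reached 12.5, and RAB43, a GTPase of the Golgi, also 12.5. In the oxidative phosphorylation class, which with 13 of 87 genes (14.9%, 8.95% to 23.9%) did not clear the background, NDUFA4 had 10.96 and NDUFV2 10.2. SREBF2, the factor that drives sterol synthesis genes, had 12.6 in a class with 5 of 38.

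Classes also differed in how their single-promoter peaks were split between promoters with and without CCAAT. The share given is that of the member genes in the sum of the 2015 member genes and the 1155 genes with a CCAAT peak, which was 63.6% over all genes. The 18 genes with both kinds are counted under each, and over the 3152 distinct genes 63.9% had a member. The classes named below held at most 1 such gene each. In the G1/S genes only 5 had a member and 15 a CCAAT peak, so the share was 25% (11.2% to 46.9%). In the G2/M genes it was 30.4% (15.6% to 50.9%), with 7 and 16. In the ZNF zinc finger genes it was 48.4% (39.7% to 57.1%), with 59 and 63. The VPS genes stood at the other end with 13 and 1, or 92.9% (68.5% to 98.7%). Of the 40 classes with such peaks, VPS was the 1 with a whole interval above 63.6%, and 4 had one below it, the fourth being the Integrator subunits with 0 and 3. Because CCAAT decides membership, these shares describe the promoters of the classes and say nothing of HSF1 level.

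All 10 chaperone members are listed because the factor is known for these genes. HSPA13, an HSP70-like protein of the endoplasmic reticulum, had a fold enrichment of 12.4 and 23 tags. HSPE1 (chr2:197499739-197500426), the mitochondrial co-chaperonin, had 12.3 and 52 tags, and its summit lay 71 bp downstream of the outermost HSPE1 start and 3 bp from another annotated coding start. HSPA8 had 11.7 and 37 tags. Its summit lay 852 bp downstream of the outermost start but 26 bp from another annotated coding start.

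HSPA9, the mitochondrial HSP70, had 8.74, and CLPB, a mitochondrial disaggregase, 8.14. HSP90AA1, the stress-inducible HSP90, had 6.74 with 11 tags, below the member median in both measures. PTGES3, the HSP90 co-chaperone p23, had 6.67. HSPA4L and HSPA4, members of the HSP110 family, had 6.15 and 6.02, and AHSA1, an activator of the HSP90 ATPase, had 6.11. HSPA13, HSPE1, HSPA8, HSPA9 and CLPB thus lay above the member median of 6.94 and the other 5 below it. GC boxes stood within 100 bp in HSPE1, HSPA8, HSP90AA1, PTGES3 and AHSA1, and the 3-unit heat shock element in HSPA8 and PTGES3. H3K27ac peaks overlapped the peaks of HSPE1 and HSPA9.

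DNAJ co-chaperones had 8 of 44 genes (18.2%, 9.51% to 32.0%), led by DNAJC21 with 10.8, and the interval held the background. Of the 8 genes of the cytosolic chaperonin CCT, 0 had a member, which allows up to 37.5%. But 5 had an HSF1 summit within 1 kb, as 21.5% of all coding genes did, 2 of them at a CCAAT promoter and 1 at a divergent one. The rest had a summit nearest to the start of another gene, so the count of 0 members holds for nearest genes only. In the class of HSF and NF-Y factors 1 of 7 genes had one: NFYA, the subunit of NF-Y that contacts CCAAT, with a fold enrichment of 12.2 and 43 tags, 143 bp upstream of its start.

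Across chromosomes the share of coding genes with a member ran from 4.89% (3.64% to 6.54%) on the X to 16.2% (12.2% to 21.1%) on chromosome 18, against 10.1% overall. Chromosome 17 was second lowest, with 6.66%, and chromosomes 7 and 2 followed chromosome 18, with 13.8% and 13.6%. The share of genes with any HSF1 summit within 1 kb was lowest on X (12.2%) and highest on chromosome 7 (26.3%), against 21.5% of all coding genes. By that count chromosome 18 (25.9%) was level with chromosomes 3 (25.9%) and 14 (25.6%). The number of chromosome copies in these cells was not measured here.

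The 4 members with a summit just inside 1 kb of the start, at DCK, NRP1, TESK1 and TMEM30B, had fold enrichments of 6.21 to 9.87, and the 2 peaks just outside, nearest CHEK1 and TMEM39B, had 5.98 and 5.29, below all 4. The 21 members with the nearest CCAAT up to 5 bp beyond the 100 bp limit had a median of 6.91, and the 28 CCAAT promoters with it up to 5 bp inside had 7.38. In all, 529 members (25.8%) had a CCAAT farther out but within 250 bp of the summit, with a median of 7.14, so the set is one without CCAAT near the summit and not one of promoters free of it.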

How the data were processed

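The authors deposited 1 peak list per CUT&Tag library. Per the file headers, MACS 2.1.4 called them on hg38 without a control at a p-value cutoff of 1e-05, after 1 tag per position was kept and tags were shifted by 100 bp and extended to 200 bp. The deposited pileup is a signal, the unscaled number of extended tags at the summit. The deposited fold enrichment is a ratio to a local background over at most 10 kb, which was recovered from the 2 values. Significance was deposited as -log10 of the p-value and of the q-value, and the header says that q-values were not computed although the column holds values, which served as a filter only. Columns start, end and summit were used as given.

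Starts and genes came from GENCODE release 44 and sequence from hg38. Members and gene lists were chosen with earlier results of these data known. Named genes were the 10 highest members by fold enrichment and by pileup, the 3 highest for each motif, up to 4 for each class, all chaperone members and those at the thresholds. Genes of high H3K27ac, high local background or lowest fold enrichment were named after their values were seen. Printed sequences leave out chromosome 8. Shares have 95% Wilson and differences Newcombe intervals, and medians order-statistic intervals, while the limit given for a count of 0 is 3 counts of the total. GC weighting used bins of 5 percentage points. With 1 library for each antibody no test over replicates was possible. The steps were tested on simulated data. The H3K27ac ChIP-seq lists, on hg19, and the RNA-seq samples were not used here. Sequence was read with pysam 0.24.0, tables with pandas 2.3.3 and numpy 2.4.6 under Python 3.11.15, intervals came from scipy 1.17.1, and plots from matplotlib 3.10.9. Some items are not reported here.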

Additional observations from a re-analysis of the deposited data

How the results depend on the processing

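The number of members stayed between 1698 and 2418 under the 8 other rules tried, and 244 of the recomputed values moved by less than their counting error, or by less than 1.5 times for counts. The share with an H3K27ac peak was 5.22% when 50% of the HSF1 peak had to be covered and 6.30% with the summit inside. With pileup in place of fold enrichment the height ratio to CCAAT promoters was 0.867. With all annotated starts 63.6% of members held a GC box and 13.7% an ETS core. Within 50 bp of the summit the shares were 46.5% for the GC box, 10.1% for ETS, 2.20% for NRF1, 0.927% for YY1 and 1.37% for CRE. In the start window they were 63.6% for the GC box, 17.6% for ETS, 3.33% for YY1 and 3.08% for CRE. With other cores they were 23.7% (GGGGCGGGG), 26.8% (CGGAAG), 5.27% (GCATGCGC), 5.42% (GATGGCG) and 10.0% (TGACGT).

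The difference in the GC box from CCAAT promoters turned to 2.43 points with GGGGCGGGG and was -11.4 points at equal GC content, and that in YY1 was 1.46 points with GATGGCG. The cause was not tested. Against starts without a peak at equal GC content, the difference was 4.78 points for the GC box and 7.38 for ETS. With starts lacking CCAAT only, an alternative chosen after seeing the data, it was 6.33 for the GC box, 7.20 for ETS and 1.53 for NRF1. At a -log10 q of at least 5 the share of coding genes was 8.40%, with 6% of G2/M genes, 4.65% of MAP kinases and kinase kinases and 3.13% of Mediator subunits. Without head-to-head members, also chosen after seeing the data, the share of coding genes was 9.15% and that of HSF and NF-Y factors 0%, and no other class share, motif share, height ratio or H3K27ac share moved beyond its counting error. The differences from CCAAT promoters were not recomputed there. Without low-complexity windows none of these values, nor those differences, moved beyond it. The interval of the GC box difference held 0 with any opposite pair as divergent (-6.84 to 0.0480), CCAAT within 50 bp (-7.19 to 0.1999), -log10 q of at least 5 (-6.95 to 0.101) and matches within 50 bp (-4.89 to 2.29). That of ETS held 0 with CGGAAG only among the 9 other settings with an interval, and that of NRF1 with none. At a -log10 q of at least 5, HOX genes were no longer below the 8.40% of all coding genes. Their Wilson interval, on which the calls of classes above and below rest, reached 8.97%.

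No paired analysis was possible because each antibody had 1 library. The depth limits what can be said of low peaks, since the median member rests on 13 tags, and of H3K27ac, since 5.70% of its tags were kept.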
